A study of Sus scrofa with 12 samples.

Results

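The SLC25 genes encode the carriers of the inner mitochondrial membrane, a family of small proteins that move metabolites, nucleotides, cofactors and ions between the cytosol and the mitochondrial matrix. Members were all probe sets whose array annotation gave a symbol made of SLC25A and a number, with the brightest probe set standing for each symbol. The rule found 56 probe sets for 35 genes, of 47845 probe sets and 13755 symbols on the array. Family members that the annotation names otherwise are not among the 35, and 3 of them, UCP2, UCP3 and MTCH1, are described with the partner genes.

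The tissue was the mucosa of the duodenum, taken from 12 pigs that differed in feed efficiency (FE), the growth obtained from the feed eaten. High FE and low FE held 6 pigs each, with 3 males (pigs 1, 2 and 3) and 3 females (pigs 4, 5 and 6) in each group. All pigs were 140 days old, each was profiled on its own array, and the labels give no other treatment, breed or diet. Every level is a signal as deposited, on a log2 scale that was read from the values, so a difference of 1 is a doubling. Levels of different genes are not set against each other, because each rests on its own probes.

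Carriers work beside enzymes on both sides of the membrane. ADP/ATP carriers and the phosphate carrier supply ATP synthase, the citrate carrier feeds fatty acid synthesis, aspartate/glutamate carriers with the oxoglutarate carrier bring reducing equivalents into the matrix, and the carnitine/acylcarnitine carrier admits fatty acids for oxidation. In enterocytes, the absorptive cells of the gut lining, the ornithine carrier serves the making of citrulline from ornithine and carbamoyl phosphate. The roles given for single members are those described for human, mouse or yeast proteins.

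The 12 arrays had medians between 3.83 and 3.91. The median of the 69 antigenomic probe sets, which match no pig transcript and measure array background, lay between 2.16 and 2.53. It averaged 2.30 ± 0.12 (SD, n = 6) over high FE pigs and 2.38 ± 0.10 (SD, n = 6) over low FE pigs. High FE pigs 1, 2 and 5 lay lowest on the first principal component of all probe sets, which held 24.9% of the variance. Their array backgrounds were 2.17, 2.29 and 2.16, so array background moved with this component. Results that rest on these 3 arrays are given with and without them, and in part with array background as a term of the model. All 11 enterocyte markers on the array lay above background, with a mean level per pig of 9.02 to 10.21 in high FE and 8.47 to 10.41 in low FE.

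Of the 35 carriers, 34 had a mean above the background median of every array. The exception was SLC25A31, an ADP/ATP carrier of the testis, at 1.99 to 2.35 in high FE and 2.10 to 2.70 in low FE. It fell below the filter on low values, which kept probe sets with a mean above the 30th percentile (2.37), and was not tested. Single antigenomic probe sets reached a mean of 7.62. Only 8 carriers lay above that mark, namely SLC25A1, SLC25A3, SLC25A5, SLC25A6, SLC25A11, SLC25A27, SLC25A30 and SLC25A44. For the other 27, the level alone does not show a transcript.

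No carrier passed an adjusted p of 0.05 between high and low FE. The fit was limma across 33405 probe sets with FE and sex as terms and Benjamini-Hochberg adjustment. The carriers' adjusted p lay between 0.753 and 0.996, and 0% of all probe sets passed. At an unadjusted p under 0.05 there were 2 carriers, SLC25A38 and SLC25A20, which is 5.88% of the 34 against 5.99% of all probe sets. Both had lower means in high FE, where 3.34% of all probe sets were lower at that p. An ordinary linear model called 0 carriers after adjustment. It had 4 of 34 at an unadjusted p under 0.05, against 5.75% of all probe sets. In 0 carriers did the 6 high FE pigs and the 6 low FE pigs not overlap, against 0.26% of all probe sets. The limma share of 5.88% lies near the background of the array, and the share in the ordinary linear model lies above it.

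The differences themselves lay mostly below 0. Of the 34 carriers, 23 had a lower mean in high FE, or 67.6%, against 54% of all probe sets and 58.2% of 12267 genes represented by their brightest probe set. The median difference, high minus low FE, was -0.10, from -0.50 to 0.43. It was -0.02 over all probe sets and -0.04 over the brightest probe set of each gene. Without high FE pigs 1, 2 and 5 the carriers' median was -0.01, with 20 of 34 below 0, against 53.5% of all probe sets. Without high FE pig 1 alone it was -0.02. Array background as a further term gave -0.06. In whole mucosa, fewer cells of a type and less RNA per cell cannot be told apart.

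**Figure D1:**
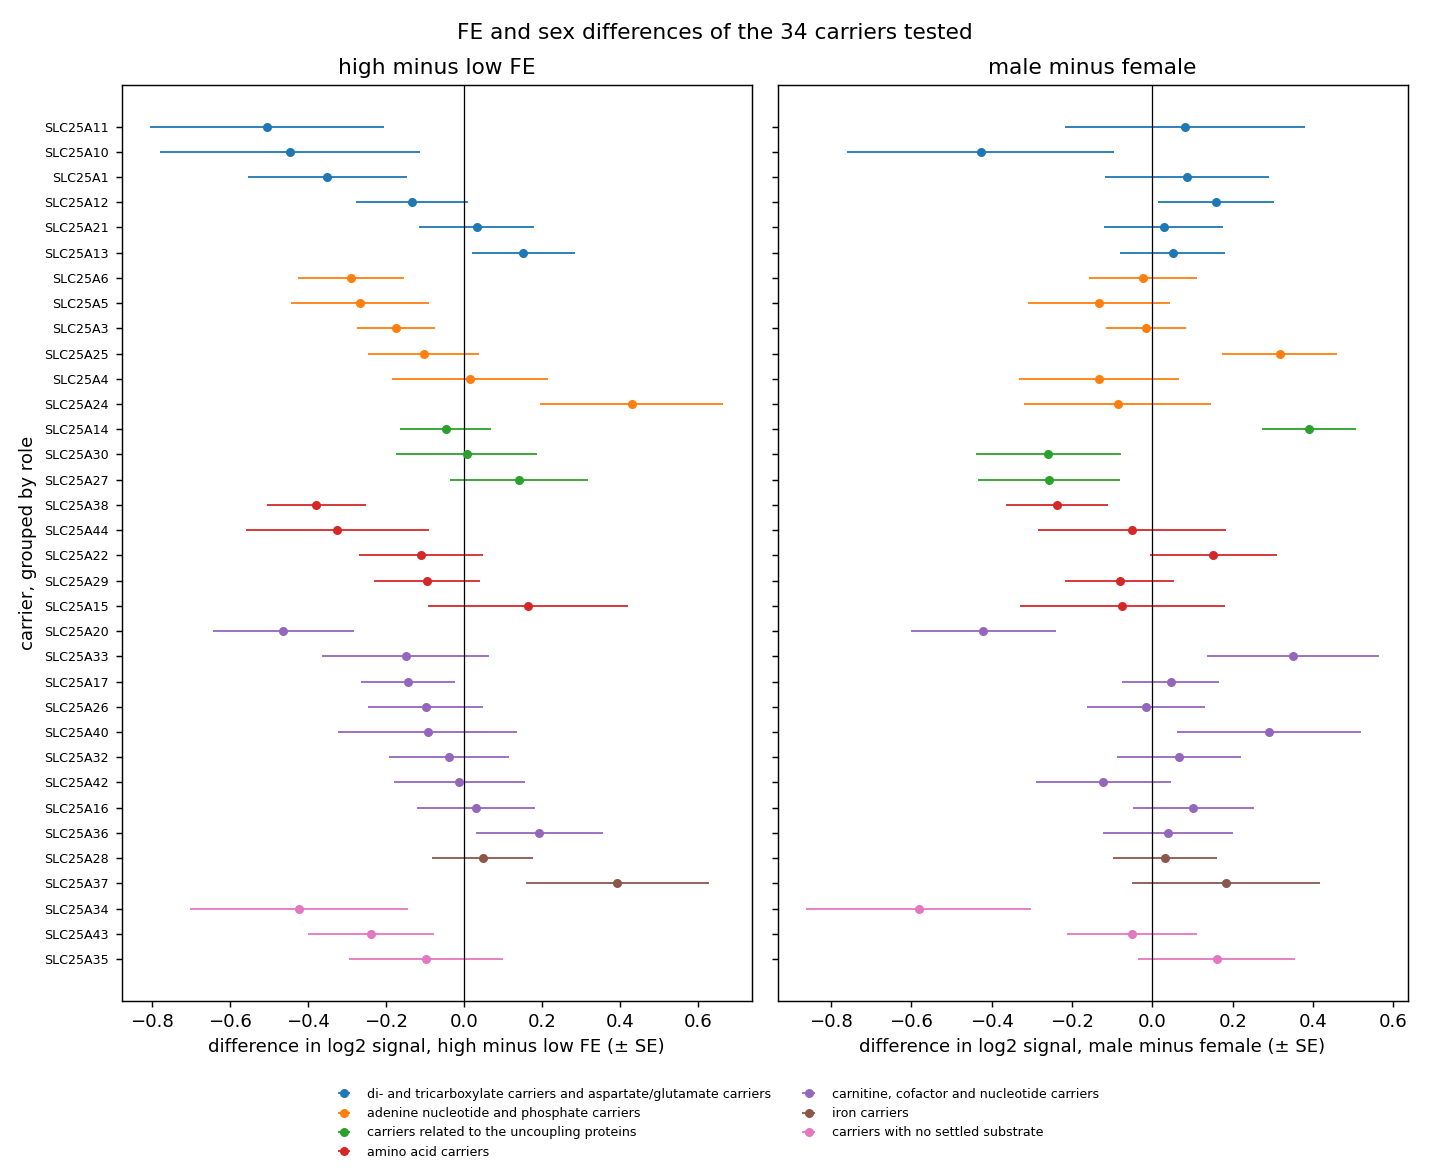
Fitted difference in log2 signal between high and low FE (left) and between males and females (right) for the 34 carriers tested. Points are differences and bars are 1 SE, and colours give the role of the carrier. Most points of the left panel lie left of 0, while those of the right panel are split evenly.

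The di- and tricarboxylate carriers and the aspartate/glutamate carriers held the widest FE difference, that of SLC25A11. Of these 6 carriers, 4 lay lower in high FE, the median difference was -0.24, and 0 passed the test. SLC25A11, the oxoglutarate/malate carrier of the malate-aspartate shuttle, ran from 6.78 through a median of 8.11 to 8.40 in high FE. In low FE it ran from 7.64 through 8.42 to 8.62. Pigs 1 and 5 of high FE, at 6.78 and 7.10, lay below every low FE pig, and the other 4 lay within or near the low FE range. The high FE mean was 7.81 ± 0.70 (SD, n = 6) and the low FE mean 8.31 ± 0.35 (SD, n = 6). The difference was -0.50 ± 0.30 (SE), with a limma adjusted p of 0.753. Without high FE pigs 1, 2 and 5 it was 0.074, with its sign turned, and with array background as a term -0.19.

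SLC25A1, the citrate carrier, ran from 7.79 through a median of 8.32 to 8.60 in high FE and from 8.23 through 8.53 to 9.17 in low FE. The 3 lowest of the 12 were high FE pigs 1, 2 and 5, at 7.79, 8.14 and 7.84. The difference was -0.35 ± 0.20 (SE), with a limma adjusted p of 0.753. Without these 3 pigs it was 0.0031, again with a turned sign. SLC25A10, the dicarboxylate carrier, differed by -0.45 ± 0.33 (SE) in all 12 pigs and by -0.0090 without the 3. SLC25A12 and SLC25A13, the aspartate/glutamate carriers also called aralar and citrin, differed in opposite directions. SLC25A12 differed by -0.13 ± 0.14 (SE).

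SLC25A13 ran from 6.99 through a median of 7.13 to 7.38 in high FE and from 6.74 through 6.96 to 7.41 in low FE. Low FE pigs 3, 5 and 6 lay below every high FE pig, while low FE pig 1 was the highest of all. Its difference was 0.15 ± 0.13 (SE), 0.26 without high FE pigs 1, 2 and 5 and 0.096 with array background as a term. SLC25A21, a carrier of oxoadipate, had 0.03 ± 0.15 (SE).

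Among carriers of adenine nucleotides and phosphate, 6 of 7 could be tested. Of these, 4 lay lower in high FE, the median difference was -0.14, and 0 passed. SLC25A6, an ADP/ATP carrier, ran from 10.62 through 10.96 to 11.40 in high FE and from 11.19 through 11.26 to 11.46 in low FE. All high FE pigs but pig 6 lay below every low FE pig, and pig 6, at 11.40, lay above 5 of the 6. The means were 10.99 ± 0.27 (SD, n = 6) and 11.27 ± 0.10 (SD, n = 6). The difference was -0.29 ± 0.13 (SE), with a limma adjusted p of 0.753, and -0.095 without high FE pigs 1, 2 and 5. Its other probe set, much dimmer at 4.38, differed by -0.02.

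SLC25A3, which carries phosphate into the matrix, ran from 10.41 through 10.51 to 10.73 in high FE and from 10.62 through 10.74 to 10.80 in low FE. Pigs 1, 2, 4 and 5 of high FE lay below every low FE pig, and pigs 3 and 6 within their range. The difference was -0.17 ± 0.10 (SE). It was -0.086 without high FE pigs 1, 2 and 5, -0.099 with array background as a term and -0.083 after quantile normalization. SLC25A5, an ADP/ATP carrier of dividing cells, differed by -0.27 ± 0.18 (SE). Its 3 lowest values, 9.48, 9.56 and 9.49, were again those of high FE pigs 1, 2 and 5, and without them the difference was 0.035. SLC25A4, the ADP/ATP carrier of heart and skeletal muscle, differed by 0.02 ± 0.20 (SE). SLC25A4, SLC25A5 and SLC25A6 are close in sequence, and whether their probe sets also bind each other's transcripts was not tested.

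The calcium-regulated carriers of ATP-Mg and phosphate went in opposite directions. SLC25A24 had the largest difference above 0 of the 34 carriers, 0.43 ± 0.23 (SE), with a limma adjusted p of 0.753. It ran from 6.10 through 6.81 to 7.14 in high FE and from 5.81 through 6.19 to 6.82 in low FE. Pigs 1, 4 and 5 of high FE lay above every low FE pig, and low FE pigs 2, 3 and 5 below every high FE pig. With array background as a term the difference was 0.22, and without high FE pigs 1, 2 and 5 it was 0.37. SLC25A25 differed by -0.10 ± 0.14 (SE).

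**Figure D2:**
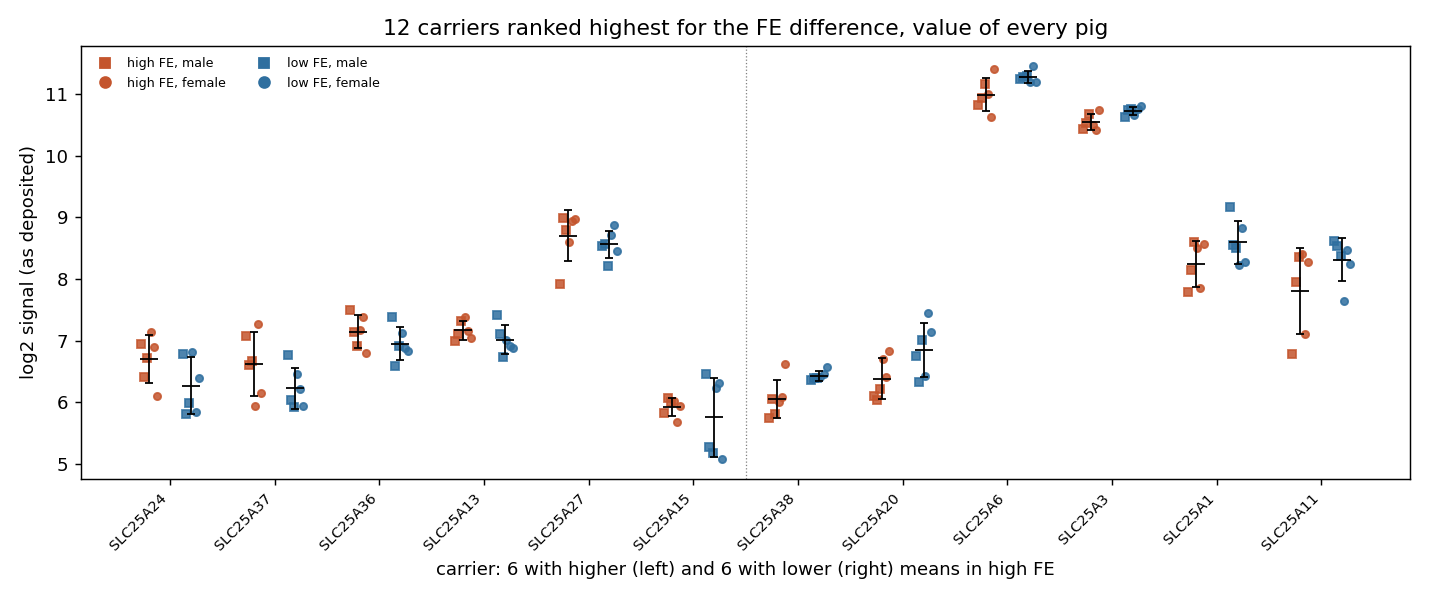
Log2 signal as deposited in each of the 12 pigs for the 6 carriers ranked first by unadjusted p with higher means in high FE (left of the dotted line) and the 6 with lower means (right). Squares are males, circles are females, and black bars are the mean and SD of 6 pigs. The groups overlap in every carrier, and low FE pigs lie close together for SLC25A38, SLC25A6 and SLC25A3.

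All 5 carriers of amino acids could be tested, and 4 lay lower in high FE. Their median difference was -0.11. SLC25A38 brings glycine into the matrix, where the first step of haem synthesis takes place. It ran from 5.74 through 6.03 to 6.62 in high FE and from 6.35 through 6.40 to 6.58 in low FE. In high FE, 5 pigs lay below every low FE pig, and pig 6 lay above them all. The means were 6.05 ± 0.31 (SD, n = 6) and 6.43 ± 0.08 (SD, n = 6). The difference of -0.38 ± 0.13 (SE) had the lowest unadjusted p of the carriers, 0.0118 in limma, and an adjusted p of 0.753. It was -0.32 without high FE pigs 1, 2 and 5 and -0.29 with array background as a term.

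SLC25A44, a carrier of branched-chain amino acids in brown fat, differed by -0.32 ± 0.23 (SE). Its 3 lowest values were those of high FE pigs 1, 2 and 5, at 7.27, 7.79 and 7.62, and without them the difference was 0.18. With array background as a term it was -0.071. All 3 of its probe sets past the filter had lower means in high FE, at -0.32, -0.54 and -0.47. SLC25A22, a glutamate carrier, differed by -0.11 ± 0.16 (SE). It was the dimmest carrier tested, at 2.84 to 3.69, against array backgrounds of 2.16 to 2.53. Without high FE pigs 1, 2 and 5 it differed by -0.39. It was then the only carrier at an unadjusted p under 0.05, against 3.98% of all probe sets. SLC25A29, a carrier of basic amino acids, differed by -0.09 ± 0.14 (SE).

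SLC25A15, the ornithine carrier, had a similar mean in both groups but a different spread. High FE pigs ran from 5.67 through 5.97 to 6.06, and low FE pigs from 5.08 through 5.75 to 6.45. Low FE pigs 1, 4 and 5, at 6.45, 6.23 and 6.32, lay above every high FE pig, and low FE pigs 2, 3 and 6, at 5.27, 5.18 and 5.08, lay below every one. The high FE mean was 5.92 ± 0.15 (SD, n = 6) and the low FE mean 5.75 ± 0.64 (SD, n = 6). The difference was 0.17 ± 0.26 (SE), with a limma adjusted p of 0.875, and 0.0056 with array background as a term. The difference in spread was not tested.

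Signals of some cell type markers moved with SLC25A15 in low FE. The mean level of the 11 enterocyte markers was 10.41, 10.15 and 9.85 in low FE pigs 1, 4 and 5 and 9.26, 8.47 and 8.86 in low FE pigs 2, 3 and 6. That of the 6 markers of Brunner glands and gastric-type epithelium was 7.46, 7.03 and 6.79 in the first 3 pigs and 9.33, 11.16 and 9.09 in the others. Smooth muscle and goblet cell markers also lay higher in each of low FE pigs 2, 3 and 6 than in low FE pigs 1, 4 and 5. Leukocyte, adipocyte and pancreatic acinar markers did not separate these pigs. High FE pigs 2 and 5 had enterocyte levels of 9.21 and 9.02 as well, and SLC25A15 at 6.06 and 5.67. The part of cell makeup in these values was not tested.

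The 9 carriers of carnitine, cofactors and nucleotides had 7 with lower means in high FE and a median of -0.09. SLC25A20 exchanges acylcarnitine for carnitine, which admits long-chain fatty acids to oxidation. It ran from 6.04 through 6.32 to 6.83 in high FE and from 6.32 through 6.88 to 7.45 in low FE. The high FE males, at 6.10, 6.04 and 6.22, lay below all other pigs, and the females of both groups overlapped. The means were 6.38 ± 0.33 (SD, n = 6) and 6.85 ± 0.43 (SD, n = 6). The difference was -0.46 ± 0.18 (SE), with an unadjusted p of 0.0243 in limma and an adjusted p of 0.753. It was -0.33 without high FE pigs 1, 2 and 5 and -0.30 with array background as a term.

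SLC25A36, a carrier of pyrimidine nucleotides, ran from 6.79 through 7.15 to 7.49 in high FE and from 6.59 through 6.89 to 7.38 in low FE. The ranges overlapped over most of their width, and the difference was 0.19 ± 0.16 (SE). Without high FE pigs 1, 2 and 5 it was 0.0037, and with array background as a term 0.023. SLC25A33, also a pyrimidine nucleotide carrier, differed by -0.15 ± 0.21 (SE). SLC25A17, which carries coenzyme A in peroxisomes rather than mitochondria, differed by -0.14 ± 0.12 (SE). The differences of SLC25A33 and SLC25A17 were -0.045 and -0.014 without the 3 pigs. SLC25A40, a carrier linked to glutathione, had -0.09 ± 0.23 (SE), and SLC25A26, the S-adenosylmethionine carrier, had -0.10 ± 0.15 (SE). For SLC25A40 it was -0.37 without the 3 pigs and for SLC25A26 -0.017. SLC25A32, linked to folate and flavin transport, SLC25A42, a coenzyme A carrier, and SLC25A16, also linked to coenzyme A, differed by -0.04, -0.01 and 0.03.

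Both mitoferrins, which bring iron into the matrix for haem and iron-sulfur clusters, had higher means in high FE without passing. SLC25A37, mitoferrin-1, ran from 5.94 through 6.64 to 7.27 in high FE and from 5.93 through 6.13 to 6.77 in low FE. Pigs 1 and 5 of high FE, at 7.08 and 7.27, lay above every low FE pig, and the other 4 within their range. The difference was 0.39 ± 0.23 (SE), with a limma adjusted p of 0.753. It was 0.067 without high FE pigs 1, 2 and 5 and 0.069 with array background as a term. SLC25A28, mitoferrin-2, differed by 0.05 ± 0.13 (SE), and by 0.14 and 0.19 under these changes.

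The 3 carriers related to the uncoupling proteins had a median of 0.0075, and 1 had a lower mean in high FE. SLC25A27 ran from 7.92 through 8.87 to 8.98 in high FE and from 8.21 through 8.55 to 8.87 in low FE. High FE pig 1 was the lowest of all 12, while the other 5 high FE pigs lay between 8.59 and 8.98. The difference was 0.14 ± 0.18 (SE) with all pigs and 0.29 without high FE pig 1. SLC25A14 differed by -0.05 ± 0.12 (SE) and SLC25A30 by 0.0075 ± 0.18 (SE). The 3 carriers with no settled substrate all had lower means, at -0.42 ± 0.28 (SE) for SLC25A34, -0.24 ± 0.16 (SE) for SLC25A43 and -0.10 ± 0.20 (SE) for SLC25A35. The difference of SLC25A34 was -0.089 without high FE pigs 1, 2 and 5, that of SLC25A43 -0.27, and that of SLC25A35 0.27, with its sign turned. With array background as a term SLC25A34 had -0.12 and SLC25A35 0.046.

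Several carriers shared their lowest arrays. The 3 pigs lowest on the first principal component, high FE pigs 1, 2 and 5, held the 3 lowest values of SLC25A1, SLC25A5, SLC25A6, SLC25A34 and SLC25A44, and the 3 highest of 0 carriers. In 21 of 34 carriers these 3 pigs had a lower mean than the other 3 high FE pigs. High FE pig 1 alone held the lowest value of 12 carriers, and low FE pig 1 the highest value of 8. The 3 pigs were picked for their place on a component of all probe sets. These counts were not made over all probe sets, so they show no trait particular to the carriers. Without the 3 pigs, SLC25A38 and SLC25A20 kept most of their difference, and 9 of 34 carriers changed sign, namely SLC25A1, SLC25A5, SLC25A11, SLC25A16, SLC25A21, SLC25A30, SLC25A35, SLC25A42 and SLC25A44. By role, the median difference without the 3 pigs was -0.0030 for di- and tricarboxylate and aspartate/glutamate carriers, -0.025 for adenine nucleotide and phosphate carriers, -0.011 for amino acid carriers, and -0.017 for carnitine, cofactor and nucleotide carriers.

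**Figure D3:**
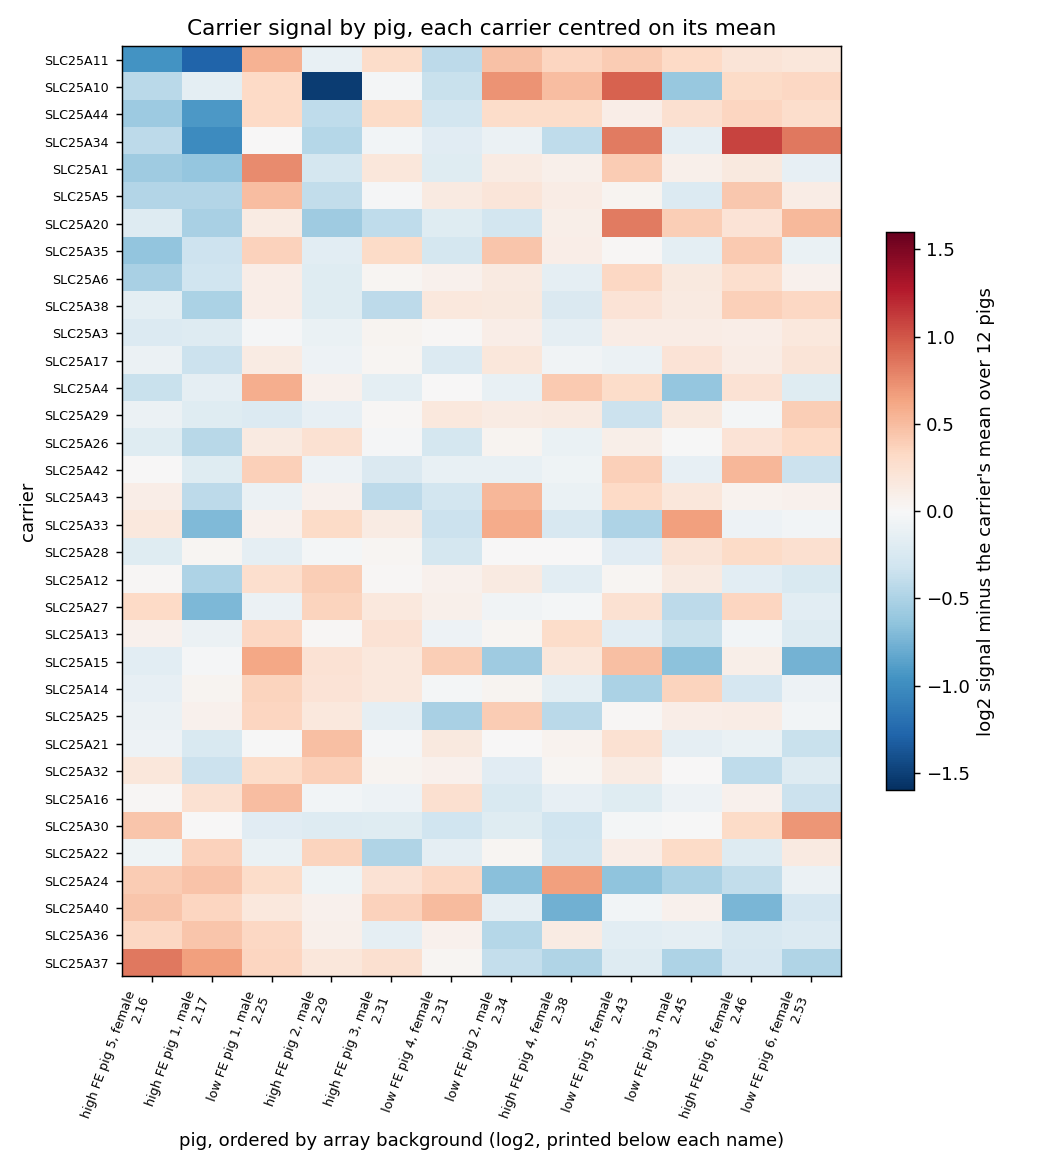
Log2 signal of the 34 carriers (rows) in the 12 pigs (columns), each carrier minus its mean over all pigs, with pigs ordered by array background, which is printed under each name. Rows are ordered by their mean in high FE pigs 1, 2 and 5, which by this choice run from low at the top to high at the bottom. SLC25A11, SLC25A44 and SLC25A1 near the top are lowest in high FE pigs 1 and 5, and SLC25A10 is lowest in high FE pig 2.

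**Figure D4:**
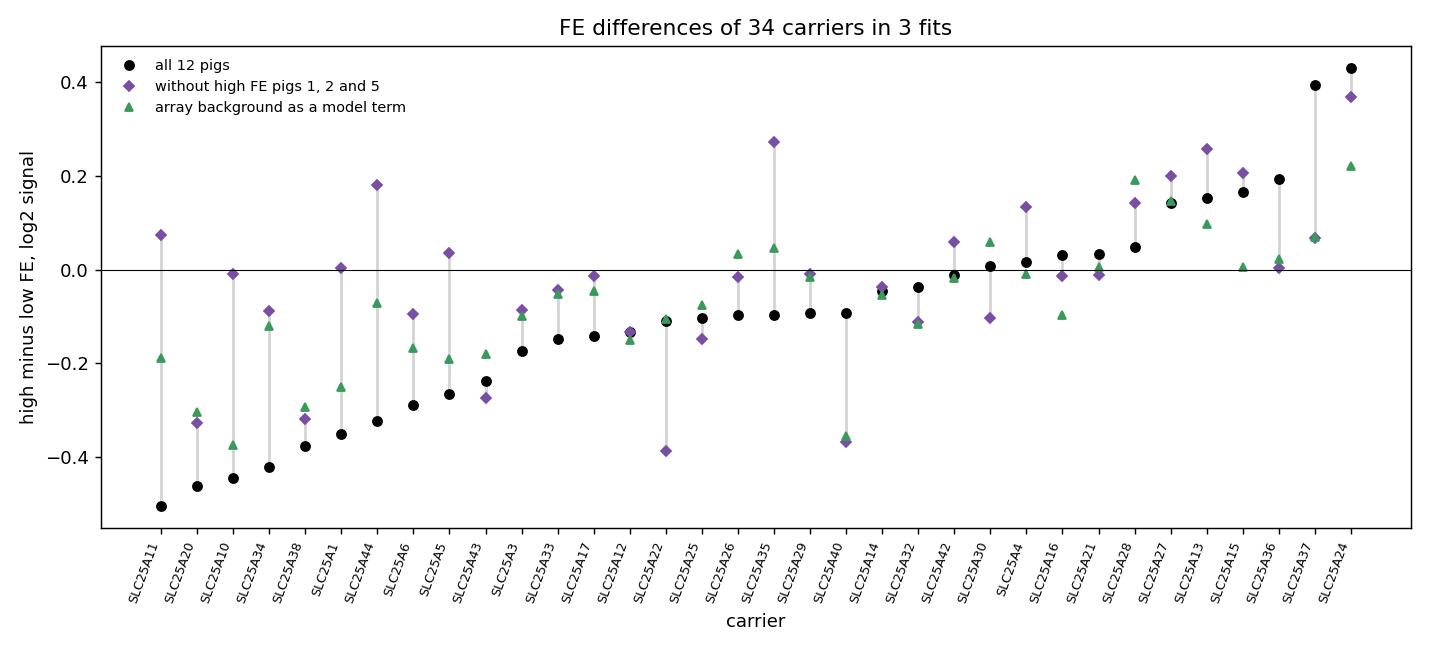
Difference in log2 signal between high and low FE for each of the 34 carriers in all 12 pigs (black), without high FE pigs 1, 2 and 5 (purple) and with array background as a term of the model (green). Grey lines join the first and second value. The differences of SLC25A11, SLC25A10, SLC25A1, SLC25A44 and SLC25A37 move to near or past 0 without the 3 pigs, and those of SLC25A20, SLC25A38 and SLC25A24 move less.

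Between the sexes, limma called 0 carriers, with adjusted p of 0.975 or more, against 0.021% of all probe sets. At an unadjusted p under 0.05 there were 3 carriers, or 8.82%, against 4.54% of all probe sets. An ordinary linear model gave 2, against 4.95% of all probe sets. SLC25A14 and SLC25A25 were higher in males, and SLC25A20 was lower, where 2.23% of all probe sets were lower at that p. Of the 34 carriers 17 had lower means in males, or 50%, against 49.4% of all probe sets, and the median difference, male minus female, was 0.0064.

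SLC25A14, a relative of the uncoupling proteins whose human gene lies on the X chromosome, was the only carrier in which the sexes did not overlap, against 0.269% of all probe sets. Males ran from 3.47 through 3.62 to 3.79 and females from 2.93 through 3.29 to 3.40. The difference was 0.39 ± 0.12 (SE), with an unadjusted p of 0.00555 in limma and an adjusted p of 0.975. Its level lay about 1 unit above the array background, and its difference stayed between 0.32 and 0.43 in all 23 alternatives. The X-linked human counterparts SLC25A5 and SLC25A43 differed by -0.13 and -0.05.

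SLC25A25 ran from 4.79 through 5.07 to 5.33 in males and from 4.40 through 4.86 to 5.04 in females, so the sexes overlapped. The difference was 0.32 ± 0.14 (SE), and its other probe set had 0.18. SLC25A33 and SLC25A40 were the next carriers with higher means in males, at 0.35 ± 0.21 (SE) and 0.29 ± 0.23 (SE). With array background as a term SLC25A40 had 0.056, and without high FE pigs 1, 2 and 5 SLC25A33 had 0.60. SLC25A20 averaged 6.41 ± 0.39 (SD, n = 6) over males and 6.83 ± 0.41 (SD, n = 6) over females. Its sex difference was -0.42 ± 0.18 (SE). SLC25A34 had the widest sex difference, -0.58 ± 0.28 (SE). Its values of 7.61, 7.37 and 7.38 in high FE pig 6 and low FE pigs 5 and 6 lay above all males and the other 3 females. SLC25A38 and SLC25A27 differed by -0.24 ± 0.13 (SE) and -0.26 ± 0.18 (SE).

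Within males, 25 of 34 carriers had a lower mean in high FE and the median difference was -0.14. Among males, 55.4% of 12267 genes by their brightest probe set were lower in high FE and the median was -0.036. Within females 19 carriers were lower and the median was -0.015, against 54.9% and -0.027 over all these genes. At an unadjusted p under 0.05 there was 1 carrier in males, against 5.61% of all probe sets, and 0 in females, against 3.67%. In males SLC25A38 was at 5.74, 6.05 and 5.82 in high FE and at 6.35, 6.39 and 6.39 in low FE. The difference in males was -0.51 ± 0.18 (SE). In females SLC25A38 was at 6.01, 6.08 and 6.62 against 6.41, 6.46 and 6.58, with a difference of -0.25 ± 0.18 (SE).

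SLC25A20 differed by -0.57 ± 0.26 (SE) in males and -0.35 ± 0.26 (SE) in females. SLC25A43 differed by -0.46 ± 0.22 (SE) in males and -0.02 ± 0.22 (SE) in females. SLC25A6 differed by -0.30 ± 0.20 (SE) in males and -0.28 ± 0.20 (SE) in females. The groups of 3 pigs differ in how many of the 3 lowest arrays they hold, with pigs 1 and 2 among the high FE males and pig 5 among the high FE females.

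The test of the difference between these FE differences, males minus females, called 0 carriers, with adjusted p of 0.998, against 0.00299% of all probe sets. At an unadjusted p under 0.05 there were 0 carriers in limma, against 3.27% of all probe sets, and 0 in an ordinary linear model. SLC25A33 came first. In males it was at 5.26, 6.27 and 6.10 in high FE and 6.04, 6.57 and 6.62 in low FE. In females it was at 5.71, 6.13 and 5.88 against 5.63, 5.48 and 5.92. The FE difference was -0.53 in males and 0.23 in females, and the interaction was -0.76 ± 0.38 (SE). SLC25A40 had an interaction of 0.64 ± 0.44 (SE), SLC25A43 of -0.45 ± 0.31 (SE) and SLC25A17 of -0.33 ± 0.23 (SE).

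Enzymes and import factors that work beside the carriers gave 56 genes past the filter. Of these, 36 had lower and 20 higher means in high FE. So 64.3% were lower, against 54% of all probe sets and 58.2% of 12267 genes by their brightest probe set. In limma 0 passed, with adjusted p of 0.753 or more. At an unadjusted p under 0.05 there were 2 with lower and 3 with higher means, or 8.93%, against 5.99% of all probe sets. Without high FE pigs 1, 2 and 5, lower means were found in 20 of the 56, against 53.5% of all probe sets. In that fit 3 of the 56 were at that p, against 3.98% of all probe sets. With array background as a term 32 of the 56 were lower, against 54.1% of all probe sets. The carnitine shuttle had lower means in 4 of 4 genes, with a median of -0.34. CRAT, which links acetyl groups to carnitine, differed by -0.52 ± 0.17 (SE). CPT1A, the enzyme that makes acylcarnitine at the outer membrane, differed by -0.59 ± 0.26 (SE). SLC25A20, their partner in the inner membrane, had a difference of like size and sign. Without the 3 pigs CRAT differed by -0.23 and CPT1A by -0.79, and 3 of the 4 genes were lower.

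The 4 enzymes of the malate-aspartate shuttle also lay lower in high FE, and their median difference was -0.38. The mitochondrial aspartate aminotransferase GOT2 differed by -0.50 ± 0.25 (SE) and the cytosolic malate dehydrogenase MDH1 by -0.61 ± 0.35 (SE). These lower means rest on high FE pigs 1, 2 and 5, since without them GOT2 differed by 0.064 and MDH1 by 0.12, 1 of the 4 genes was lower, and the median was 0.091. GOT2 was at 8.86, 9.27 and 9.07 in these 3 pigs and at 9.54 or more in all others. Of 5 genes that form or use citrate, 4 had lower means, with a median of -0.24. Citrate synthase CS differed by -0.28 ± 0.14 (SE) and the malic enzyme ME1 by -0.24 ± 0.15 (SE), and without the 3 pigs by -0.024 and -0.15. The mean level of ME1 was low, at 3.72. ACLY and ACACA, the first enzymes that turn exported citrate into fatty acids, were higher in males at an unadjusted p under 0.05, by 0.40 ± 0.15 (SE) and 0.35 ± 0.13 (SE), and passed no adjusted test.

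Carriers known under other symbols, UCP2, MTCH1 and UCP3, had differences of -0.36, -0.32 and -0.13 between high and low FE. The 3 outer membrane channels, the VDAC proteins, had a median of -0.14, with VDAC2 at -0.33 and VDAC1 at -0.14. UCP2 was at -0.027 without high FE pigs 1, 2 and 5, MTCH1 at -0.25 and UCP3 at -0.10, and VDAC2 and VDAC1 were at 0.17 and 0.088, with their signs turned. The 12 factors that import and insert carriers were split, with 5 lower, 7 higher and a median of 0.01. Among them TIMM9, a chaperone of the space between the membranes, differed by 0.44 ± 0.13 (SE) and AGK, a part of the carrier translocase, by 0.49 ± 0.23 (SE). Without the 3 pigs these were 0.44 and 0.24, and 1 of the 12 factors was lower. TIMM9 had a low mean level of 3.71, and AGK one of 6.02.

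Genes of the urea cycle, ornithine and glutamate had 3 lower and 4 higher means, with a median of 0.10. GLUD1, glutamate dehydrogenase, differed by 0.30 ± 0.11 (SE) and OAT, which makes ornithine, by 0.33 ± 0.24 (SE), and without the 3 pigs by 0.30 and 0.13. In haem and iron-sulfur cluster synthesis, 4 of 6 genes had higher means. ALAS1, which uses the glycine that SLC25A38 brings in, differed by 0.37 ± 0.13 (SE), opposite in sign to SLC25A38, and CPOX by 0.15 ± 0.24 (SE). ALAS1 was at 0.36 and CPOX at -0.059 without the 3 pigs. Mitochondrial one-carbon enzymes had 4 of 6 lower, with MTHFD1L at 0.30 and AMT at -0.17. Regulators of mitochondrial biogenesis had 4 of 6 lower and a median of -0.02, with NRF1 at 0.20 and PPARGC1B at -0.25. Without the 3 pigs MTHFD1L and AMT were at 0.17 and 0.043, and NRF1 and PPARGC1B at -0.025 and 0.13. MTHFD1L had a low mean level of 3.20, with a lowest value of 2.35.

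Of 9 pairs of a carrier and a partner gene, 2 passed over the 12 pigs. The test was a two-sided permutation test of Pearson's r with Benjamini-Hochberg adjustment over the 9. These pairs were chosen with earlier results of these data known, which the adjustment does not cover. By Spearman's rho neither of the 2 passed. Pairs of other genes were not counted for comparison. SLC25A15 and CPS1, which makes carbamoyl phosphate in the matrix, had r = 0.77 (permutation p = 0.00275, adjusted p = 0.0247). Spearman's rho was 0.66 (permutation p = 0.0235, adjusted p = 0.145). Without low FE pigs 3 and 6, the farthest from the median of SLC25A15, r was 0.53. Leaving out the ends of a range tends to lower r, so this fall cannot tell whether the relation rests on them. Pearson's r was 0.76 after the means of FE and sex were removed and 0.86 without high FE pigs 1, 2 and 5. CPS1 was at 8.75, 7.91 and 8.53 in low FE pigs 2, 3 and 6 and at 8.95 or more in every other pig, the same 3 pigs that were lowest for SLC25A15 and for the enterocyte markers among low FE.

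SLC25A20 and CPT1A had r = 0.74 (permutation p = 0.00666, adjusted p = 0.03). Spearman's rho was 0.63 (permutation p = 0.0322, adjusted p = 0.145). Without low FE pigs 5 and 6, r was 0.49. After the means of FE and sex were removed it was 0.60, with an adjusted permutation p of 0.165, and it then missed the threshold. CPT1A was highest in low FE pig 5, at 7.87, where SLC25A20 was highest too, at 7.45.

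The other 7 pairs did not pass. Pearson's r was 0.54 for SLC25A20 with CPT2, the next enzyme of the shuttle, and 0.59 for SLC25A3 with SLC25A5. It was 0.08 for SLC25A13 with GOT2, 0.12 for SLC25A1 with ACLY and 0.16 for SLC25A37 with FECH, which puts iron into haem. Removal of FE, sex and array background was a setting added after the data were seen. In it SLC25A13 with GOT2 had r = 0.85 and passed (adjusted permutation p = 0.00477). The permutation of residuals did not allow for the terms removed, so this p is likely too small. SLC25A37 with FECH had r = -0.30 in this setting. Without high FE pigs 1, 2 and 5 its r was 0.51, and that of SLC25A3 with SLC25A5 was -0.20. With all 12 pigs, r was -0.06 for SLC25A32 with the serine enzyme SHMT2. It was -0.25 for SLC25A4 with the smooth muscle gene MYH11.

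All 561 pairs of tested carriers were also compared, a family of tests added after the data were seen. Pearson's r ran from -0.84 to 0.94 with a median of 0.12. By permutation 3 pairs passed an adjusted p of 0.05, all with r above 0, and by Spearman's rho 0 passed. The same count was not made for pairs of other genes, so it shows no trait particular to the carriers. SLC25A11 and SLC25A44 had r = 0.94 (adjusted permutation p = 0.0337) and rho = 0.69 (adjusted p = 0.259). SLC25A3 and SLC25A6 had r = 0.90 (adjusted permutation p = 0.0337) and rho = 0.81 (adjusted p = 0.142). SLC25A1 and SLC25A11 had r = 0.88 (adjusted permutation p = 0.0112) and rho = 0.86 (adjusted p = 0.142). Without high FE pigs 1, 2 and 5 the r of these pairs was 0.83, 0.70 and 0.72. With FE, sex and array background removed it was 0.90, 0.64 and 0.89.

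**Figure D5:**
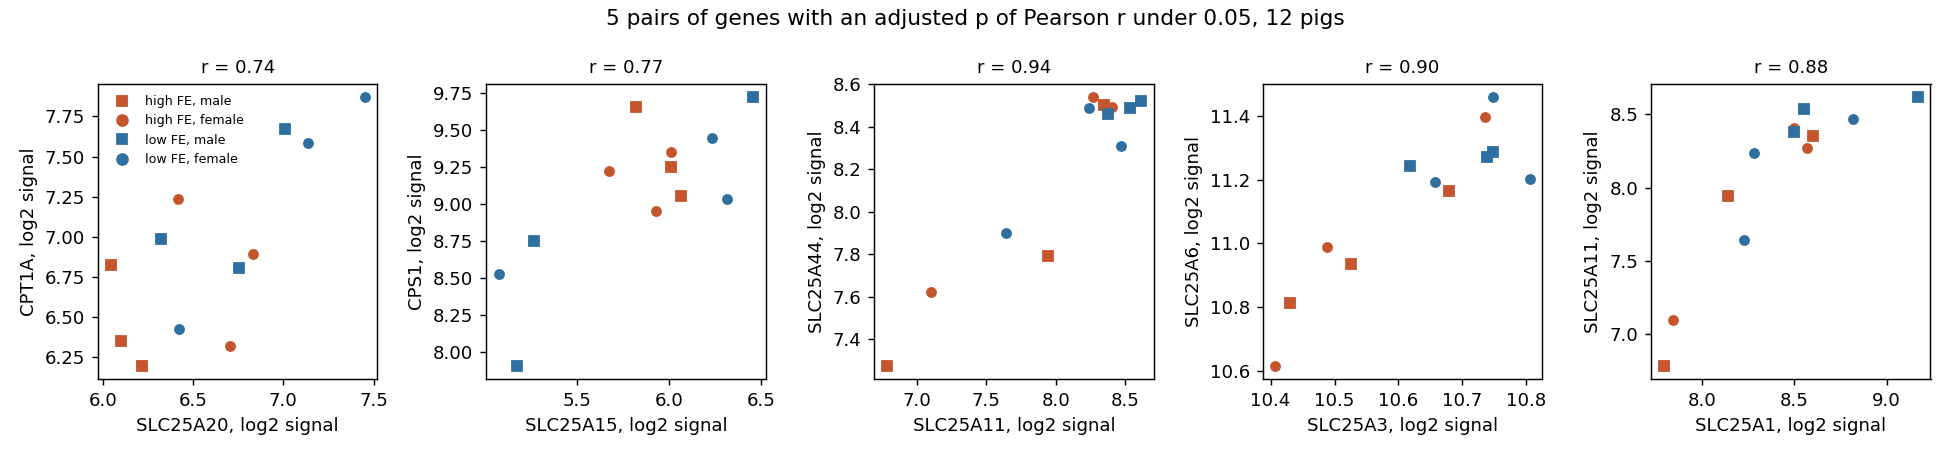
Log2 signal of 5 pairs of genes in the 12 pigs, with Pearson's r above each panel. The first 2 panels are carriers with a partner enzyme and the other 3 are pairs of carriers. High FE pigs 1, 2 and 5 and low FE pig 4 are set off at the lower left for SLC25A11 with SLC25A44, and low FE pigs 2, 3 and 6 for SLC25A15 with CPS1.

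Mean levels per pig of the markers of other cells overlapped between the groups in every list, and no single marker gene passed the test. Smooth muscle markers had a lower high FE mean in 7 of 7 genes, with mean levels per pig of 8.13 to 8.70 in high FE and 8.27 to 9.07 in low FE. Brunner gland and gastric-type markers ran from 5.62 to 9.10 and from 6.79 to 11.16, and pancreatic acinar markers from 3.27 to 3.54 and from 3.42 to 6.50, with low FE pig 6 at the top. Goblet cell markers ran from 10.32 to 11.04 and from 10.67 to 11.12, leukocyte markers from 6.75 to 7.47 and from 6.82 to 7.37, and adipocyte markers from 5.18 to 6.32 and from 5.15 to 6.56. Lower in high FE were also 6 of 6 Brunner gland and gastric-type genes (median difference -1.10), 6 of 6 pancreatic acinar genes, 5 of 5 goblet cell genes, 6 of 6 adipocyte genes and 4 of 8 leukocyte genes. Of the 11 enterocyte markers 3 were lower, and their median difference was 0.15. Over the array, 58.2% of 12267 genes by their brightest probe set were lower in high FE. Marker differences without high FE pigs 1, 2 and 5 are not given here. The part of cell makeup in the carriers' differences was not tested.

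Where a carrier had more than 1 probe set past the filter, the FE difference did not always have the same sign. Of 12 such carriers, 7 had 1 sign in all their probe sets. SLC25A11, SLC25A25, SLC25A26, SLC25A29 and SLC25A30 did not. The dimmer probe set of SLC25A11, at 3.51, differed by 0.11 against -0.50 for the brighter, and that of SLC25A30 by -0.26 against 0.0075. Both probe sets of SLC25A1 had lower means in high FE, at -0.35 and -0.67, and so had both of SLC25A38, at -0.38 and -0.24.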

How the data were processed

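RNA of duodenal mucosa from 12 pigs was hybridised to 12 Affymetrix arrays after whole-transcript labelling, per the labels' protocols. The deposited values are on a log2 scale, read from their range of 0.21 to 14.21, since neither labels nor files state it. The submitters' processing notes name GCOS 1.1.1. How the arrays were background-corrected, normalized and summarized is not given in the sources used. Symbols came from the platform annotation, where 26426 probe sets had 1 symbol and 21296 others none. No build is named for the array, so no coordinates are given.

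From these values, probe sets with a mean above the 30th percentile entered lmFit and eBayes of limma 3.58.1 (R 4.3.3) on all 12 arrays, with FE and sex as terms, and with 4 means for the interaction. Benjamini-Hochberg adjustment ran over all 33405 probe sets, with a threshold of 0.05, without the 123 control probe sets. Correlations used 100000 permutations with Python 3.11.15. The scripts were tested on simulated data. Replicates are separate pigs. Their numbers follow deposit order and pair nothing, and the number of arrays limits the precision.

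The members, role lists, partner lists and pairs were chosen with earlier results of these data known. Named with full values were the first 6 and 6 carriers by unadjusted p for FE, 4 and 4 for sex, 4 for the interaction, 3 within each sex, and the first 2 genes of each partner list. UCP3, ACLY, ACACA and the values of second probe sets were added after they were seen. Alternatives changed the filter, normalization, variance model, weights, model terms, probe sets per gene and set of pigs.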

Additional observations from a re-analysis of the deposited data

Results flagged for a closer look

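Within a group of 6 pigs, 1 pig stood apart from the other 5 in 5 of 70 groups of carrier values by Dixon's test, in which the gap to the nearest pig divided by the range exceeded the critical value. Chance alone gives about 1 in 20. SLC25A6, an ADP/ATP carrier, was at 11.46 in low FE pig 5 and at 11.19 to 11.29 in the other low FE pigs, a gap over range of 0.651. SLC25A27, a relative of the uncoupling proteins, was at 7.92 in high FE pig 1 and at 8.59 to 8.98 in the others (0.634). SLC25A30, another such relative, was at 8.43 in low FE pig 6 and at 7.40 to 7.71 in the others (0.694). SLC25A42, a coenzyme A carrier, was at 5.53 in high FE pig 6 and at 4.78 to 5.01 in the others (0.697). SLC25A44, a carrier of branched-chain amino acids, was at 7.90 in low FE pig 4 and at 8.31 to 8.52 in the others (0.660). The 5 values came from 5 different pigs.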

How the results depend on the processing

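No alternative gave a carrier an adjusted p under 0.05 for FE, sex or the interaction, and the smallest was 0.524 for FE and 0.604 for sex. Of 34 carriers, 17 kept the sign of their FE difference in every alternative that gave them a value, and 16 that of their sex difference. Those alternatives numbered 24, or 23 for SLC25A14 and SLC25A22. Carriers at an unadjusted p under 0.05 for FE were 2 as reported and 4 with array weights or an ordinary linear model. They were 1 with array background as a term or without high FE pigs 1, 2 and 5. Of all probe sets, 5.99% were at that p as reported, 6.85% with array weights and 5.75% with an ordinary linear model. The share was 3.39% with array background as a term and 3.98% without the 3 pigs. Without single pigs the carriers ranged from 1 to 6, and the share of all probe sets from 4.12% to 9.48%. Both were highest without high FE pig 6. For sex the carriers were 3 as reported, 5 with array weights and 1 with array background as a term. They were 1 to 4 without single pigs. The matching shares of all probe sets were 4.54%, 6.89%, 5.65%, and 3.76% to 7.88%. For the interaction the carriers were 0 as reported and 0 to 1 without single pigs. They were 1 with array weights, with the mean of a gene's probe sets or without the 3 pigs. Shares of all probe sets in these interaction fits are not given here. Without the 3 pigs, 9 of 34 carriers turned the sign of their FE difference, among them SLC25A1 (0.0031) and SLC25A11 (0.074), as did the correlations of SLC25A32 with SHMT2 (0.056) and SLC25A3 with SLC25A5 (-0.20). The mean of all probe sets turned the FE difference of SLC25A38 in females (0.16). With FE, sex and array background removed, the correlation of SLC25A37 with FECH was -0.30 and that of SLC25A32 with SHMT2 0.084, while SLC25A13 with GOT2 passed at 0.85. With FE and sex removed, 1 partner pair passed instead of 2. Permutation of residuals did not allow for the terms removed, so the p in these fits is likely too small. The cause of the changes in sign and in calls was not tested. The median FE difference lay between -0.13 and -0.02 without single pigs. No paired analysis was possible because the replicate numbers follow deposit order and mark no shared litter, batch or day. With 6 pigs a group, 0 calls does not show that the carriers were alike.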
